A study of Mus musculus with 272 samples.

Results

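A set of 9 noncoding RNAs was followed along sucrose gradients of mouse oocytes and preimplantation embryos, as references for transcripts that encode no known protein. They were listed by name: Bc1, Malat1, Neat1, Gas5, Snhg1, Snhg3, Snhg8, Snhg12 and H19. Of these 9, 7 were found among the 15854 gene symbols of the deposited table. Snhg3 and H19 were not found and are not analysed here. None of the 7 had the same values as another symbol, and all 7 passed the filter on low values.

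The series covers 8 stages: germinal vesicle (GV) oocytes, metaphase II (MII) oocytes, zygotes, 2-cell (2C), 4-cell (4C) and 8-cell (8C) embryos, morulae and blastocysts. No strain, genotype, animal age or treatment that differs between stages is given in the labels. Lysates of about 100 oocytes or embryos were made with cycloheximide, which holds ribosomes on their transcripts, and spun through linear sucrose gradients that were collected as 10 fractions (n = 3 gradients per stage, A to C, 240 libraries). Pools of 20 oocytes or embryos from the batch used for the gradients gave transcriptome libraries (n = 4 per stage, 32 libraries). All libraries were made by Smart-seq from RNA that the labels call polyA. The values are CPM, reads of a gene per 1 M reads of its library. Each fraction is scaled to its own total, so a CPM gives the weight of an RNA among the RNAs of that fraction, not its amount.

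A transcript that carries more ribosomes sediments further, while free RNA and small ribonucleoproteins stay near the top of a gradient. Fractions carry only numbers in the labels, and fraction 1 is read here as the top. Here fractions 1 to 5 are called the light side and fractions 6 to 10 the heavy side, and the difference is heavy minus light on the log2(mean CPM + 1) scale. The noncoding RNAs differ in what holds them in the cell. Bc1 is a short RNA polymerase III transcript, best known from neurons, where it is part of a small ribonucleoprotein that represses translation. Malat1 and Neat1 are long nuclear RNAs: Malat1 is found at nuclear speckles, and Neat1 is the scaffold of paraspeckles. Gas5, Snhg1, Snhg8 and Snhg12 are spliced host genes whose introns hold small nucleolar RNAs (snoRNAs), the guides of ribosomal RNA modification. Gas5 and Snhg1 are known from other cells as RNAs that are loaded with ribosomes and removed by nonsense-mediated decay, and their starts belong to the pyrimidine-rich 5' TOP class that also marks ribosomal protein genes.

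A stretch of Bc1 is shown because its long run of A sets it apart from the other 6 RNAs in libraries labelled polyA. The part of that run in its capture was not tested. The RNA has 168 bases in the GENCODE M21 transcripts (GRCm38), and the stretch covers its positions 70 to 99, with a run of 23 A in capitals. A second run of 9 A covers positions 120 to 128.
Bc1: gctctggAAAAAAAAAAAAAAAAAAAAAAA
The longest transcripts annotated there had 6983 bases for Malat1, 20771 for Neat1, 2556 for Gas5, 2728 for Snhg1, 776 for Snhg8 and 1538 for Snhg12. The longest run of A in any of their transcripts was 12 in Malat1 and Snhg12, 7 in Neat1 and 5 in the other 3 hosts.

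The starts of the snoRNA hosts are shown because the 5' TOP class is defined by letters at the start. Each stretch holds 10 bases before and 20 bases from a RefSeq start (GRCm38.p6), read on the gene's strand, with its longest run of C and T in capitals.
Gas5, chr1:161035156-161035185, plus strand: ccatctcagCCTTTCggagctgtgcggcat
Snhg1, chr19:8723477-8723506, plus strand: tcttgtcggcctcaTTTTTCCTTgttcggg
Snhg8, chr3:123508317-123508346, minus strand: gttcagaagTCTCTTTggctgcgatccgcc
Snhg12, chr4:132308668-132308697, plus strand: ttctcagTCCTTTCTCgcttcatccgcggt
The run has 6 bases in Gas5, 7 in Snhg8 and 9 in Snhg1 and Snhg12. It crosses the annotated start in Gas5, Snhg8 and Snhg12 and lies after it in Snhg1. Of 32851 RefSeq starts read in the same way, 28.67% had a run of at least 6 bases, 17.93% one of at least 7 and 7.11% one of at least 9. Another annotated start of Gas5 had a run of only 3 bases. A run is a description of the letters.

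Depth limits what can be said at some positions. The depth was 11.2 to 24.3 M reads per transcriptome library and 0.0102 to 43.2 M per fraction library. Fraction 1 was shallow at several stages, with 0.0102, 0.0231 and 7.66 M reads in the GV gradients, 0.336 to 0.667 M in 2C, 0.141 to 0.347 M in 4C, 0.184 to 0.396 M in 8C and 0.418 to 0.782 M in morula gradients. Reads carry no molecular identifiers, so counts and floors cover counting error only. The labels were checked against markers: 6 oocyte genes summed to at least 14730 CPM in GV pools, 4 trophectoderm genes to at least 2060 CPM in blastocyst pools, and none of the 4 somatic markers (Col1a1, Col3a1, Ptprc, Hbb-bs) was found in the table. Cumulus and granulosa markers (3 of 7 in the table) summed to 39.4 to 68.9 CPM in GV oocytes, MII oocytes and zygotes, to 5.60 to 12.9 CPM in 2C embryos and to at most 0.23 CPM later. Of these markers, Inha had 0 reads in the zygote and 2C pools. The sperm list, with 1 of 3 genes in the table, summed to 14.1 to 19.3 CPM in GV oocytes. The part of such marked cells in the transcriptome levels below was not tested. In such pools, fewer cells of a type and less RNA per cell cannot be told apart.

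From MII oocytes to blastocysts, most of the CPM of Bc1 summed over the 10 fractions lay in fraction 1, the top. In MII oocytes fraction 1 had 315, 101 and 116 CPM in gradients A, B and C, and it held 98.4% ± 0.769 (SD, n = 3) of the CPM summed over the 10 fractions. Fraction 2 had 1.15 ± 0.153 CPM, and fractions 3 to 10 had means between 0.04 and 0.39 CPM. The drop from the first fraction to the next was seen in every MII gradient.

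The same shape returned at later stages. Fraction 1 held 95.9% ± 5.32 of the summed CPM in zygotes, 91.3% ± 7.32 in 2C, 79.9% ± 15.0 in 4C, 90.4% ± 2.23 in 8C embryos, 86.7% ± 4.85 in morulae and 92.4% ± 1.90 in blastocysts (SD, n = 3 each). The level in fraction 1 was 9.32, 14.6 and 8.70 CPM in zygotes, 987, 561 and 562 CPM in 8C embryos, and 1669, 185 and 241 CPM in morulae. Gradient A of the morulae was thus high against the other 2. Only 42 to 137 reads stood behind the zygote values, and 121 to 317 behind those of the 8C embryos. Over all 3 gradients Bc1 had 178 light and 143 heavy reads in 2C embryos, and 781 and 282 in 4C embryos.

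In GV oocytes fraction 1 could be read in 1 gradient only. Gradient C had 3040 CPM (24581 reads) in fraction 1. Gradients A and B had 0 reads there, in libraries so shallow that 3 reads would be 293 and 130 CPM, so levels below these were not detectable. As side means Bc1 had 2.84 light and 2.61 heavy CPM in GV gradient A, and 2.39 and 0.38 CPM in B. In 4C embryos, gradient A had a further 120 CPM (138 reads) in fraction 6, where gradients B and C had 0.46 and 1.07 CPM.

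**Figure D1:**
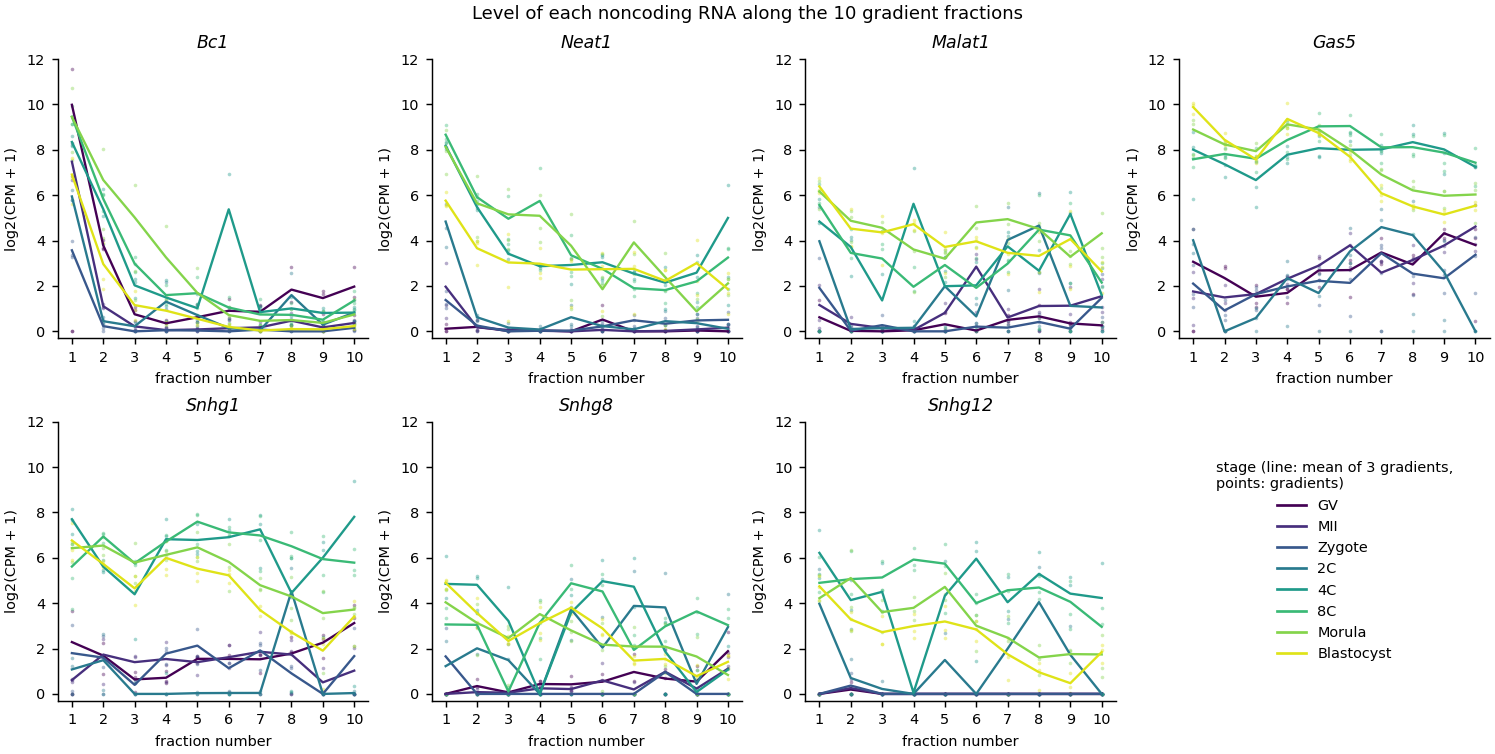
Level of each noncoding RNA, log2(CPM + 1), against fraction number, with lines for the mean of 3 gradients at each of the 8 stages and points for single gradients. Bc1 and Neat1 fall from fraction 1 onwards, while Gas5 rises towards fraction 10 in MII oocytes and falls from fraction 4 onwards in blastocysts.

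Tested across all genes with limma, Bc1 was lower on the heavy side when averaged over the 8 stages, by -4.19 ± 0.38 (log2, SE; adjusted p = 6.3e-11), and the sign was the same in 24 of 24 gradients. With fraction 1 left out of the light side, the difference was -1.34 and still called. Of 15172 genes tested, 9.87% were called in this comparison, 6.35% lower and 3.52% higher. A call needs an adjusted p (Benjamini-Hochberg) under 0.05 and a difference of at least 1.

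Single stages gave differences of -4.75 ± 1.09 in MII oocytes (adjusted p = 0.00664, limma), -6.35 ± 1.09 in 8C embryos, -6.11 ± 1.09 in morulae and -4.40 ± 1.09 in blastocysts, all called. The 2C (-3.12) and 4C (-4.17) differences were called too. In GV oocytes (-2.96; adjusted p = 0.54) and zygotes (-1.63; adjusted p = 0.62) it was not called by limma, but DESeq2 called both on reads summed over a side. In zygotes the heavy side had 0.01, 0.01 and 0.08 CPM, below the pseudocount of 1, which compresses the difference. Without the first fraction no MII (-0.17), 2C (-0.06), 4C (-1.38) or blastocyst (-1.46) difference was called, so these 4 calls rest on fraction 1. edgeR kept the MII call and lost the other 5, and DESeq2 lost the 2C and 4C calls. Leaving out gradient A or B ended the MII, 2C and blastocyst calls, and leaving out B also the 4C call.

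Neat1 also leaned to fraction 1 once it was detectable. Its transcriptome level was near 0 before the 2-cell stage, with 1 read in all 4 GV pools and 0 in the MII pools. In 4C embryos fraction 1 had 280, 324.5 and 265 CPM, and it held 71.8% ± 5.36 of the summed CPM (SD, n = 3). In 8C embryos it had 355, 546 and 316 CPM and held 70.6% ± 19.3. The later fractions of 4C embryos had lower means, such as 43.5 CPM in fraction 2, but gradient B had 87.3 CPM in fraction 10 beside 1.26 and 4.31 CPM in A and C.

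The share of Neat1 in fraction 1 was 89.8% ± 9.11 in 2C embryos, 66.1% ± 8.77 in morulae and 48.6% ± 6.70 in blastocysts. In blastocysts the level there was 68.6, 44.4 and 46.7 CPM, and fractions 2 to 10 had means of 2.63 to 11.7 CPM. No blastocyst fraction library was without Neat1 reads. The 2C share rests on 9, 24 and 9 reads in fraction 1.

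Over the 8 stages Neat1 was lower on the heavy side by -1.93 ± 0.18 (SE; adjusted p = 9.8e-11, limma), with this sign in 20 of 24 gradients. It was called in 2C (-2.38 ± 0.51), 4C (-2.99), 8C (-4.39) and morula gradients (-3.56). In blastocysts the difference was -1.59 ± 0.51 and not called (adjusted p = 0.095), although the light and heavy values of the 3 gradients did not overlap (13.3 to 19.6 against 3.92 to 6.30 CPM). From 8C embryos to blastocysts the difference moved by 2.80 ± 0.72 (adjusted p = 0.044), a comparison chosen after the values were seen, in which 1.04% of genes were called. This call held under only 2 of 14 alternatives and was lost under 12, among them those without gradient A, B or C, edgeR, DESeq2 and the gradient as a block. Without fraction 1 the mean over stages was -0.73, under the size needed for a call, and the 2C and 4C calls were lost. edgeR called none of the 4 stages, and DESeq2 called 8C embryos and morulae but not 2C (adjusted p = 0.14) or 4C embryos (0.87). Both tools took reads summed over a side, where the shallow fraction 1 weighs less than in the mean CPM that limma used. In 4C embryos Neat1 had 1309 reads on the light side and 1761 on the heavy side.

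Malat1 leaned to different sides at different stages and, in some, in different gradients. In MII oocytes its difference was 1.24, 0.28 and 1.54 in gradients A, B and C, higher on the heavy side in all 3 (mean 1.02; adjusted p = 0.79, limma), and in morulae -0.17, -0.95 and -0.22, lower in all 3 (adjusted p = 0.96). The sides overlapped at both stages. In 4C embryos its difference was 3.49 in gradient A, -2.24 in B and -0.63 in C. In 8C embryos it was -2.73, -0.24 and 0.78. Single libraries stood out, such as fraction 4 of 4C gradient B with 144 CPM (1850 reads), where gradients A and C had 0 and 0.362 CPM. Over all stages Malat1 was lower on the heavy side in 14 of 24 gradients and higher in 10, and the mean difference was -0.09 ± 0.30 (adjusted p = 0.87, limma).

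Blastocysts were the one stage where its 2 sides did not overlap. The light side had 29.0, 34.7 and 33.4 CPM and the heavy side 8.46, 6.23 and 18.1 CPM. The difference of -1.61 ± 0.86 was not called (adjusted p = 0.57). It was called when only the blastocyst gradients entered the fit (adjusted p = 0.010).

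Gas5 changed sides during development. In MII oocytes it was higher towards the bottom: the heavy side had 16.5, 12.2 and 8.47 CPM and the light side 4.01, 3.68 and 2.34 CPM. In blastocysts the heavy side had 86.9, 77.4 and 74.1 CPM and the light side 645, 471 and 423 CPM. The 2 sides did not overlap at either stage, and their order was opposite. Its centre, the mean fraction number weighted by CPM, was 6.92 ± 1.26 in GV oocytes, 7.42 ± 0.62 in MII oocytes and 6.75 ± 0.08 in zygotes. It was 5.81 ± 0.20, 5.71 ± 0.84 and 5.48 ± 0.20 in 2C, 4C and 8C embryos, and 4.02 ± 0.44 in morulae and 3.31 ± 0.12 in blastocysts (SD, n = 3 each). The GV centre was 7.61, 7.68 and 5.465 in gradients A, B and C, and fraction 1 could be read in C only.

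The profile itself shows in which fractions Gas5 had the most weight among the RNAs of a fraction. In MII oocytes the highest mean was in fraction 10 (46.3, 10.8 and 13.6 CPM), with 27.9% of the summed CPM, and gradient A was high there against B and C. In 8C embryos it was in the middle, with 524 ± 234 CPM in fraction 5 and 529 ± 193 CPM in fraction 6. In blastocysts fraction 1 had 1058, 1014 and 760 CPM and fraction 4 had 1069, 411 and 494 CPM, while fractions 7 to 10 had means of 34.5 to 67.1 CPM. The mean blastocyst profile thus had 2 peaks, both on the light side. In 2C embryos 12 of 30 fraction libraries had 0 reads of Gas5, and its profile there is patchy.

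**Figure D2:**
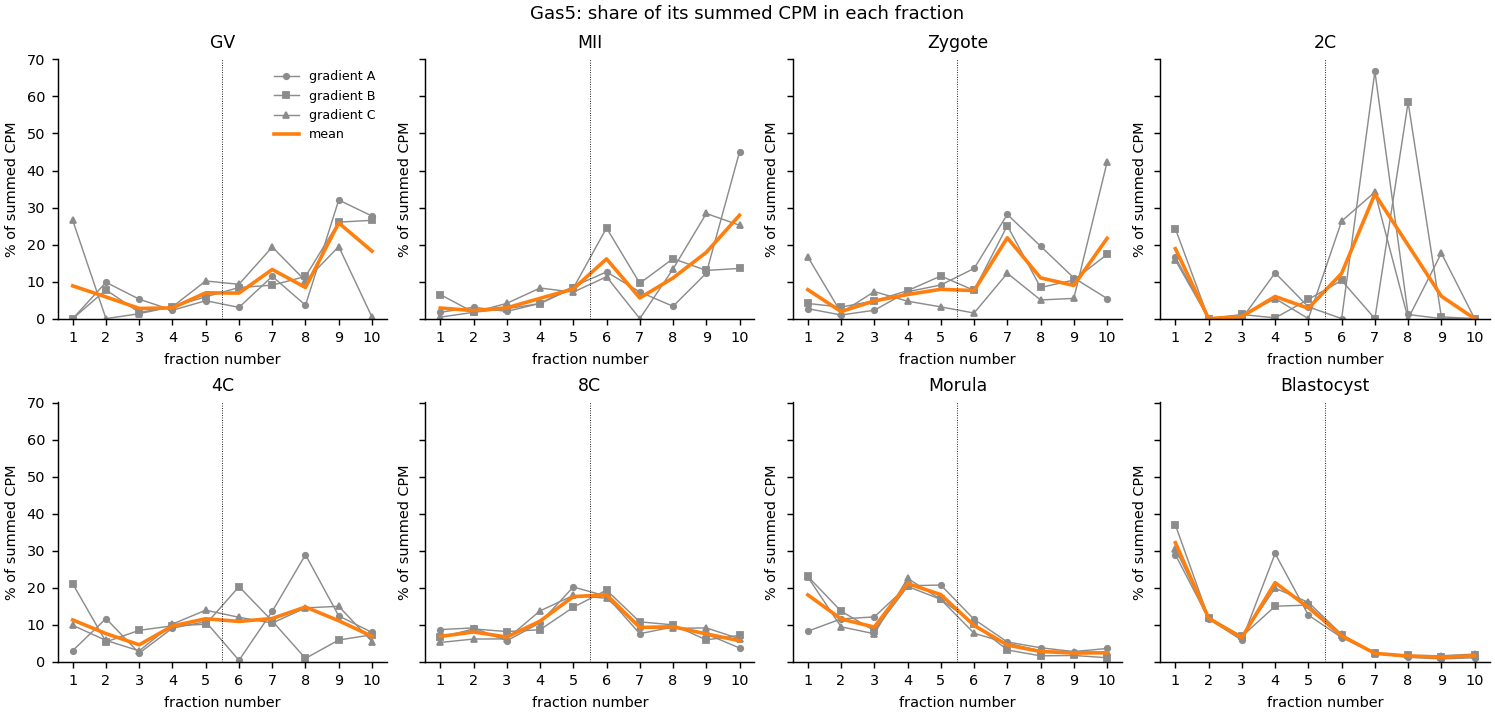
Share of the summed CPM of Gas5 (percent) in each of the 10 fractions at the 8 stages, grey for gradients A to C and orange for their mean, with a dotted line between the light and heavy side. The weight lies right of the line in MII oocytes, on both sides in 8C embryos (centre 5.48) and left of it in blastocysts (centre 3.31).

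Gas5 was called higher on the heavy side in MII oocytes (1.60 ± 0.40; adjusted p = 0.015, limma) and 2C embryos (1.19 ± 0.40; adjusted p = 0.035). It was called lower in morulae (-1.85 ± 0.40; adjusted p = 0.0019) and blastocysts (-2.66 ± 0.40; adjusted p = 3.6e-05). GV oocytes (1.26), zygotes (1.04), 4C (0.31) and 8C embryos (0.00) had no call, and in GV oocytes and zygotes the heavy value was higher in 3 of 3 gradients. The difference fell by 4.26 ± 0.57 from MII oocytes to blastocysts (adjusted p = 1.5e-05), a comparison chosen after the values were seen, in which 2.37% of genes were called. This call held under each of the 14 alternatives run, with values from -5.87 to -3.82.

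Among its single stages, the blastocyst call held under all 15 alternatives run, among them those without gradient A, B or C. The MII call was lost without any one gradient (adjusted p up to 0.27). The 2C call was lost without any one gradient too, and the sign turned (-0.21) when fractions 1 to 3 were set against 8 to 10. The morula call was lost without gradient B. The fall from 8C embryos to blastocysts (-2.65 ± 0.57; adjusted p = 0.011) was lost without any one of the 3 gradients, with edgeR, with a pseudocount of 0.1 and without fraction 1.

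The other snoRNA hosts were light in morulae and blastocysts as well. Snhg1 had 57.9, 65.0 and 52.1 CPM on the light side of blastocyst gradients and 13.7, 10.3 and 15.8 CPM on the heavy side, and the difference of -2.07 ± 0.56 was called (adjusted p = 0.029, limma). The call was lost without any one gradient, with edgeR, with DESeq2, with a pseudocount of 0.1 and without fraction 1. Snhg8 had 15.2, 12.4 and 11.03 against 3.17, 2.12 and 2.19 CPM (-1.99 ± 0.66; adjusted p = 0.12). Snhg12 had 10.3, 12.9 and 9.99 against 2.27, 2.91 and 2.29 CPM (-1.78 ± 0.82; adjusted p = 0.40). The sides did not overlap for any of the 3, and in morulae they did not overlap either (-1.69, -1.47 and -2.21, none called). That is a description only, as the share of all genes whose sides do not overlap was not counted.

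Before the 8-cell stage limma called none of these 3 hosts in either direction. Snhg1 in 2C embryos had a difference of 1.48 ± 0.56 (adjusted p = 0.060), which edgeR (3.66; adjusted p = 0.016) and DESeq2 (3.49; adjusted p = 0.00041) called higher, and 91.3% of its mean share lay in fraction 8. In that stage 19 of its 30 libraries had 0 reads. Snhg8 had 0 reads in 101 and Snhg12 in 125 of all 240 fraction libraries. Snhg12 had 13, 14 and 15 reads in all in the gradients of GV oocytes, MII oocytes and zygotes, so its position there was not detectable at this depth.

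**Figure D3:**
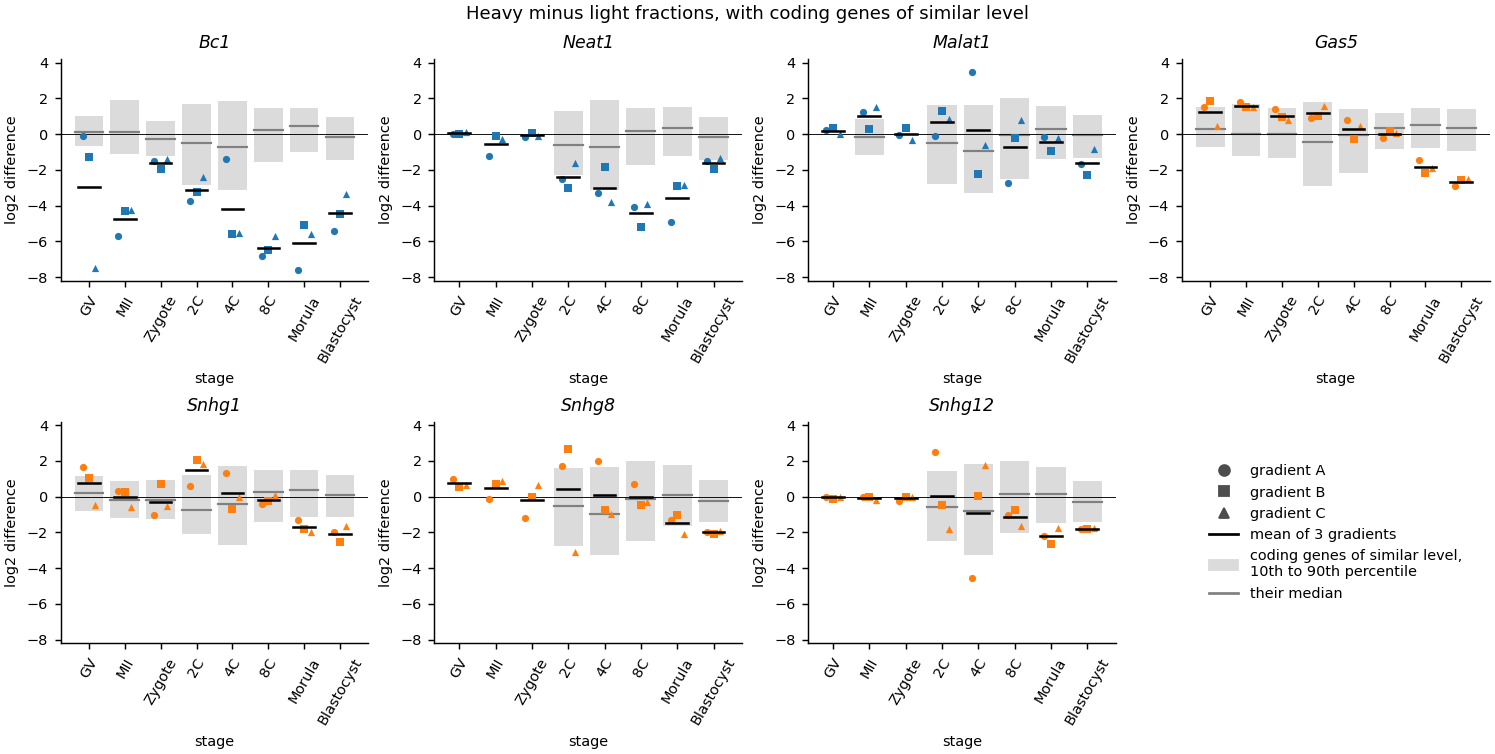
Heavy minus light log2 difference of each noncoding RNA at the 8 stages, points for gradients A to C and black bars for their mean, over grey bars that span the 10th to 90th percentile of coding genes of similar level (grey line, their median). The mean of Bc1 lies below the grey bars at every stage. Single Bc1 points lie inside them, such as GV gradient A (-0.09), 2C gradient C (-2.42) and 4C gradient A (-1.39). The means of the 4 snoRNA hosts lie below the bars in morulae and blastocysts, except Snhg8 in morulae (-1.47).

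Counted over stages, 0 of 7 noncoding RNAs were called in GV oocytes and zygotes, where 0.0725% and 3.01% of all genes were called in either direction by limma. At an unadjusted p under 0.05 there were 2 in GV oocytes and 1 in zygotes, DESeq2 called 1 at each stage and edgeR none. In MII oocytes 2 of 7 were called (background 3.23%), in 2C embryos 3 (18.2%), in 4C and 8C embryos 2 each (16.3% and 9.05%), and in morulae and blastocysts 3 each (5.81% and 2.74%). Of the 15 calls, 13 were towards the light side, and both heavy calls were of Gas5. No change between consecutive stages was called for any of the 7 in the 49 comparisons with limma, in which 0.185%, 0.0198%, 4.65%, 11.7%, 2.47%, 0.534% and 0.0198% of genes were called, in the order of the stages. There were 5 at an unadjusted p under 0.05, and edgeR called 2 and DESeq2 called 5.

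Coding genes of similar level give the scale for these differences. They are the protein-coding genes whose mean CPM over the fractions of a stage lay within 1.5 times that of the noncoding RNA, and they are a description with no test. For Bc1, 0 of 1317 such genes had a lower difference in GV oocytes, where gradient C alone had reads in fraction 1, 0 of 1918 in MII oocytes, 0 of 1326 in 8C embryos, 0 of 1100 in morulae and 1 of 1893 in blastocysts, but 102 of 1791 in 2C embryos. Their medians at those stages were 0.12, 0.10, 0.22, 0.46, -0.15 and -0.49. For Neat1, 17 of 1496 coding genes were lower in 8C embryos, 139 of 1888 in blastocysts and 202 of 1785 in 4C embryos. Bc1 thus lay at the edge of the coding genes at 5 stages. Neat1 lay among the lowest 7.36% in blastocysts, and in 4C embryos 11.3% of similar coding genes were lower than Neat1.

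Gas5 crossed that distribution. In MII oocytes 88.9% of 1841 coding genes of similar level had a lower difference, in 4C embryos 61.5% of 668, in 8C embryos 32.5% of 542, in morulae 2.12% of 567 and in blastocysts 1 of 558. The median of these coding genes stayed between -0.45 and 0.50 at all 8 stages. In blastocysts 2.28% of similar coding genes were lower than Snhg1, 3.52% lower than Snhg8 and 5.38% lower than Snhg12. Malat1 lay above the 90th percentile in MII oocytes (94.7% lower), within the 10th to 90th percentile from 2C embryos to morulae and below it in blastocysts (5.92% lower).

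The single coding gene nearest in mean level over all fractions gives a matched pair for each. Vps26a, a retromer subunit, was beside Bc1 (both 43.2 CPM) and was called higher on the heavy side over the stages (1.38 ± 0.33; adjusted p = 0.0021, limma). Riok1, a kinase of small ribosomal subunit maturation, was beside Gas5 (both 139 CPM) and was called higher on the heavy side in 2C embryos (1.86; adjusted p = 0.032) and lower in 4C embryos (-3.395; adjusted p = 0.00015). It was not called at the other 6 stages, with -0.57 in blastocysts. Laptm5, a lysosomal membrane protein, was beside Neat1 (both 19.6 CPM) and was called lower in 2C embryos (-4.24) and at none of the other 7 stages. Tmed3 beside Snhg1 (0.61), Cpne8 beside Snhg8 (0.16), Tekt4 beside Snhg12 (-0.26) and Ppp2r1b beside Malat1 (0.29) had the values in parentheses in blastocysts, none called.

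Likeness of pattern was measured as Pearson's r of log2(CPM + 1) over the 80 stage and fraction means, among 13745 genes. These points share libraries and their depth, so r is a description. Gas5 and Snhg1 had r = 0.92, and Epb41l4aos, another snoRNA host, was the gene most like Snhg1 (0.92). Bc1 was most like Akap5 (0.95), Tmem30c and Omd, and Neat1 like Chrna1 (0.95), Dqx1 and Golm2. Gas5 was most like Gm10076, Plac9 and Smim40 (0.93 to 0.94), Snhg12 like Mt2, a metallothionein, Smim13 and Smim40 (0.89 to 0.92), and Snhg8 like Mt2, Snhg12 and Atxn7l3 (0.78 to 0.80). Malat1 had the gene Gm32885 as its nearest (0.87), then 2210409E12Rik and Apoc1. Between the noncoding RNAs, r ran from 0.31 (Bc1 and Gas5) to 0.92, and Bc1 and Neat1 had 0.76.

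In the transcriptome pools 6 of the 7 rose between 2C and 4C embryos, where 64.8% of 14642 genes were called in either direction with limma. By direction, 32.23% of coding genes were called higher and 32.65% lower. Of long noncoding RNAs of RefSeq, 17.25% were called higher and 47.33% lower. Malat1 rose from 6.61, 11.8, 9.22 and 9.35 CPM to 52.7, 116, 59.0 and 59.9 CPM (2.78 ± 0.26 log2, SE; adjusted p = 6.5e-12). Gas5 went from 49.2 ± 7.93 to 352 ± 60.6 CPM (SD, n = 4; 2.81 log2), Snhg1 from 11.8 ± 2.21 to 98.1 ± 34.1 CPM (2.90) and Snhg12 from 1.94 ± 0.59 to 16.1 ± 2.42 CPM (2.56). Neat1 went from 1.01 ± 0.43 to 9.60 ± 3.24 CPM (2.38) and Bc1 from 0.24 ± 0.23 to 3.45 ± 1.42 CPM (1.79). The pools of both stages did not overlap for any of these 6. Snhg8 had 2.77 ± 0.88 and then 3.83 ± 1.87 CPM, with no call.

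An earlier rise was called for 5 of the 7. Of all genes 33.9% were called in either direction between zygotes and 2C embryos, and 25.52% of coding genes were called higher. Gas5 rose by 1.74, Malat1 by 1.88, Snhg1 by 2.51 and Snhg8 by 1.16 there on the log2 scale. Neat1 rose by 0.69 (adjusted p = 0.0090, limma), under the size of 1 that a call needs. Snhg12 had 0 reads in all 4 zygote pools and 106 reads in the 2C pools, which is at least 10.8-fold higher against a floor of 3 reads per library. Between GV and MII oocytes (34.5%) 1 of 7 was called: Snhg1 fell by 1.26, from 3.39 ± 0.36 to 0.83 ± 0.20 CPM. Gas5 (-0.91), Bc1 (-0.74) and Malat1 (0.92) missed only the size for a call there (adjusted p = 2.6e-05, 0.011 and 0.0028, limma). Between MII oocytes and zygotes (10.3%), Malat1 fell by 1.39, from 6.43 ± 2.37 to 1.81 ± 0.75 CPM. Gas5 rose by 0.61 at that step (adjusted p = 0.0064, limma), under the size for a call.

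After the 4-cell stage the limma calls were those of the nuclear RNAs, in blastocysts. From 4C to 8C embryos and from 8C embryos to morulae 0 of 7 were called with limma (backgrounds 2.6% and 11.9%), 2 at each step had an unadjusted p under 0.05, and edgeR and DESeq2 called none. Malat1 rose by 0.993 from 8C embryos to morulae (adjusted p = 0.0036, limma), just under the size for a call. From morulae to blastocysts (26.8%), Malat1 rose by 2.12 to 713, 417, 566 and 573 CPM, and Neat1 by 1.41 to 60.6, 32.4, 50.7 and 49.1 CPM. Gas5 had 374 ± 41.0 CPM in morulae and 222 ± 61.5 CPM in blastocysts, Snhg1 65.2 ± 11.2 and 37.3 ± 10.8 CPM, and Snhg12 18.1 ± 3.05 and 9.13 ± 2.61 CPM. These 3 falls, of -0.79, -0.82 and -0.94, had adjusted p of 0.00024, 0.0024 and 0.00018 with limma. They were not called because they were under the size of 1 that a call needs. edgeR called all 3, and DESeq2 called 2 of the 7 noncoding RNAs lower. Bc1 stayed between 3.45 ± 1.42 and 5.397 ± 1.95 CPM from 4C embryos on, within its spread.

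**Figure D4:**
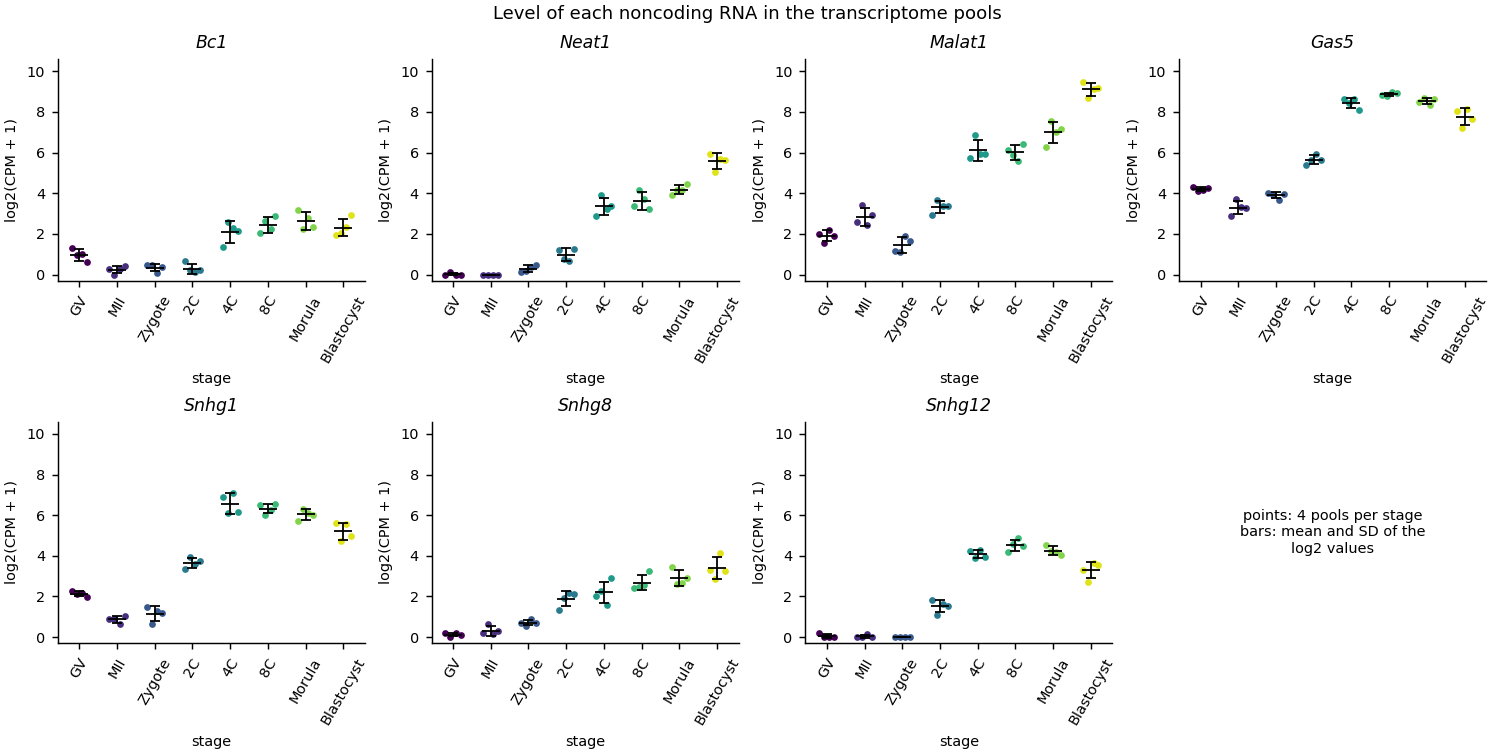
Transcriptome level of each noncoding RNA, log2(CPM + 1), at the 8 stages, points for the 4 pools and bars for the mean and SD of the log2 values. All but Snhg8 step up between 2C and 4C embryos, and Malat1 and Neat1 step up again in blastocysts.

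The 2 kinds of library gave different levels for the same RNA. Malat1 had 567 ± 121 CPM in blastocyst transcriptomes (SD, n = 4) and a mean of 21.6 CPM over the fractions of blastocyst gradients, a log2 ratio of -4.66 ± 0.23 (SD, n = 3 gradients). Coding genes of similar transcriptome level had a median ratio of -0.31, and 2 of 287 were lower. At the earlier stages Malat1 had mean ratios from -2.41 to -0.96. Its level was thus lower in the fractions at each of the 8 stages, though 1 of the 3 gradients of 2C embryos had a ratio of 0.72. Lysates were cleared by centrifugation before loading on a gradient, per the labels' protocols, and the part of that step in the ratio was not tested.

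Neat1 at some stages and Bc1 at all 8 gave positive ratios. Neat1 had ratios of 1.96 ± 0.25 in 4C and 2.199 ± 0.27 in 8C embryos, where the medians of similar coding genes were 0.30 and 0.35, and -2.06 ± 0.24 in blastocysts. Each of these lay within the 10th to 90th percentile of similar coding genes. That range was -2.75 to 2.80 in 4C, -1.93 to 2.56 in 8C embryos and -2.84 to 1.395 in blastocysts. Bc1 had 3.23 ± 0.35 in 4C, 3.78 ± 0.44 in 8C embryos and 1.24 ± 0.93 in blastocysts. The 4C and 8C values lay above the 90th percentile of similar coding genes (2.935 and 2.64), and the blastocyst value lay below it (1.397). These ratios weigh the 10 fractions equally. In 4C and 8C embryos the shallow fraction 1 holds most of the summed CPM of both RNAs, which is not an amount. Gas5 had -2.52 ± 0.27 in 2C embryos and 0.39 ± 0.29 in blastocysts. Both values lay within the 10th to 90th percentile of similar coding genes (-2.97 to 1.81 and -3.20 to 1.23). The ratios of the gradients of both stages did not overlap.

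**Figure D5:**
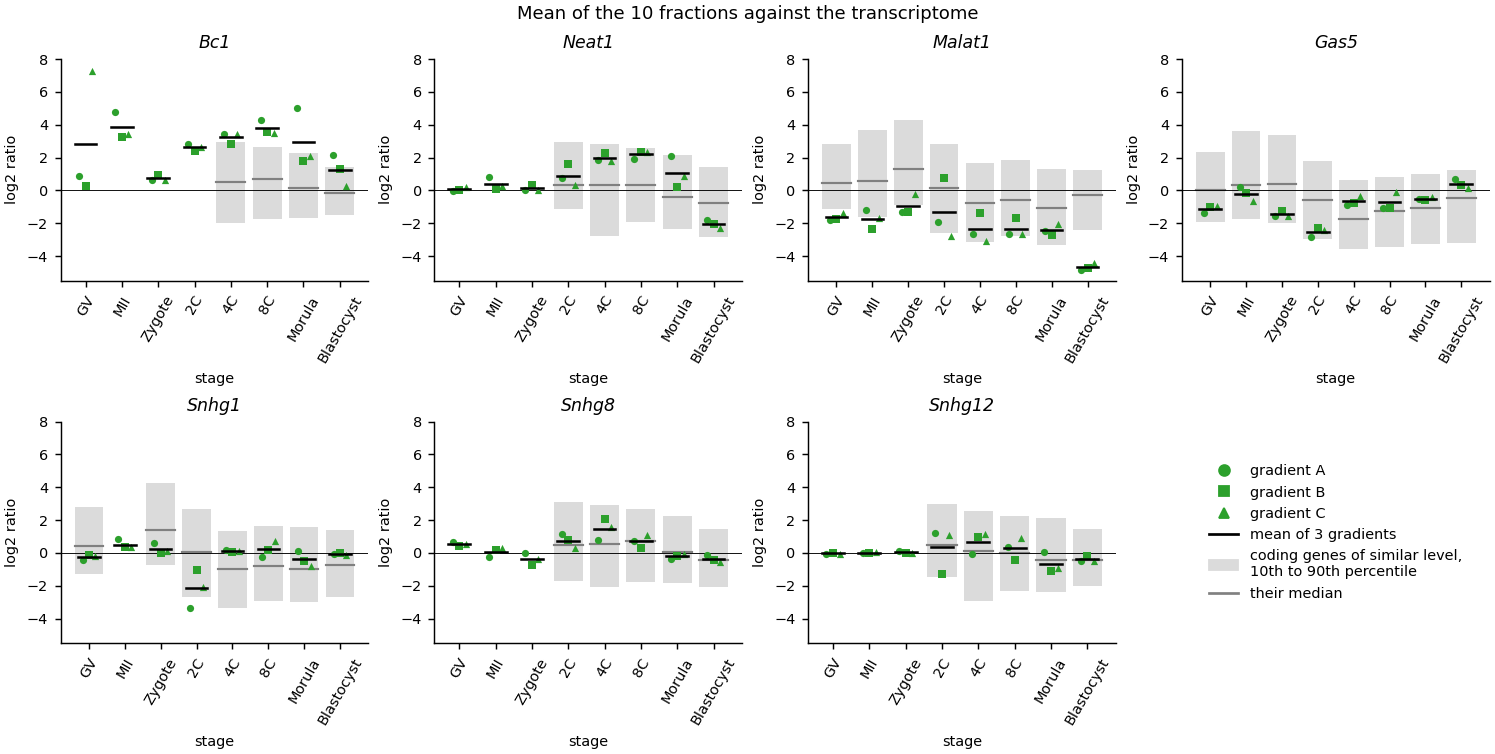
Log2 ratio of the mean CPM + 1 of the 10 fractions to the transcriptome mean at the 8 stages, points for gradients A to C and black bars for their mean, over grey bars for the 10th to 90th percentile of coding genes of similar transcriptome level (none drawn below a transcriptome mean of 1 CPM). Malat1 in blastocysts lies at -4.66, under the grey bar.

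Other noncoding RNAs were read in the same fit. Of 13 other snoRNA hosts found of 16 listed, 2 were called lower on the heavy side in blastocysts, Epb41l4aos (-2.07 ± 0.55) and Snhg6 (-2.01 ± 0.51), and none higher. The list's median was -1.55, beside -0.02 over all genes. In morulae Snhg11 (-2.70) and Epb41l4aos (-1.76) were called lower, and the median was -1.19. Snhg11 was the one host of the list that limma called over the 8 stages (-2.01 ± 0.24), where edgeR called 1 higher and 1 lower and DESeq2 called 2 higher and 3 lower. Of the 13, 7 had an unadjusted p under 0.05 on the light side in blastocysts, DESeq2 called 1 and edgeR none.

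Of the short noncoding RNAs of RNA polymerase III and housekeeping complexes, 3 of 9 listed were found. Rn7sk, the 7SK RNA that holds the elongation factor P-TEFb, was lower on the heavy side over the stages (-2.68 ± 0.24; adjusted p = 3.3e-11, limma) and Rny1, a Y RNA, by -1.25 ± 0.17. In morulae limma called all 3 lower, Rn7sk (-3.85), Rny1 (-2.69) and Rny3 (-1.59), while DESeq2 called 2 and edgeR none. Of the long noncoding RNAs, 12 of 21 were found. Ftx (-1.78) and Dleu2 (-1.02) were called lower over the stages, and in blastocysts Oip5os1 (-3.23) and Ftx (-2.16).

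Among all 743 long noncoding RNAs of RefSeq that were tested, 78 (10.5%) were called lower on the heavy side over the stages and 0 higher by limma, with a median of -0.25. On the higher side, 23 had an unadjusted p under 0.05, edgeR called 10 and DESeq2 called 47. Of 13560 coding genes 813 (5.996%) were lower and 524 (3.86%) higher, with a median of -0.04. In blastocysts 49 of the 743 (6.59%) and 213 of the coding genes (1.57%) were called lower.

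The coding genes with a 5' TOP start include those of ribosomal proteins and elongation factors. All 20 rose between 2C and 4C embryos, with a median of 3.84 log2 beside 0.02 over all genes, and Rpl3 by 5.43. In this comparison 64.8% of all genes were called in either direction, and 32.23% of coding genes were called higher. On the gradient the median difference of the 20 was 1.04 in 2C embryos, where 7 were called higher and 2 lower (18.2% of all genes in either direction). It was 0.66 in morulae (1 higher, Hnrnpa1 by 2.63, beside 5.81% of all genes) and -0.08 in blastocysts, where limma, edgeR and DESeq2 called 0 of 20 and 5 had an unadjusted p under 0.05. The Gas5 difference in blastocysts was -2.66. No test of Gas5 against this list was made.

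Genes of proteins that act on these RNAs were read as well. Of 10 nonsense-mediated decay factors 9 rose between 2C and 4C embryos (median 1.64), as did 7 of 8 core proteins of snoRNA particles (2.208 for Gar1, 4.21 for Fbl) and 6 of 10 paraspeckle proteins (median 1.26). In either direction, the share of paraspeckle genes called lay near the 64.8% of all genes. By direction, 32.23% of all coding genes tested were called higher there and 32.65% lower. In blastocysts their median heavy minus light differences were -0.21, 0.34 and 0.14. The list of H19 neighbours and imprinted growth genes (8 of 8 in the table) had a median of 0.29 between 2C and 4C embryos, with 3 higher and 1 lower of 7 tested.

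Some reads cannot be assigned with certainty. The strand setting of the counting is not given in the sources used here. In RefSeq, Gas5 overlaps 8 snoRNAs and the coding gene Zbtb37, which is in the table. Snhg1 overlaps 8 snoRNAs, Snhg12 4, Snhg8 1 and Malat1 the small RNA Mascrna, while Bc1 and Neat1 overlap none. Bc1 is related to the many ID repeats of rodent genomes, so its reads can match elsewhere.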

How the data were processed

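RNA was measured in 240 fraction and 32 transcriptome libraries. Values are CPM, counts of reads scaled by the authors to the library total, in 1 table they deposited; 9 columns whose sums pass a CPM total were recorded as a signal that the authors scaled in the same way, and were used as CPM. The submitters' processing notes name Trim Galore 0.6.7, FastQC, HISAT2 2.2.1, featureCounts 2.0.1, edgeR and GRCm39, with no role or order. Of symbols with identical values 1 was kept, leaving 15771. Names and classes came from RefSeq GRCm38.p6 (15652 symbols matched), whose gene coordinates are not printed beyond the sequences shown.

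Reads were recovered from CPM steps in 271 of 272 libraries (100% of values whole within 0.05 reads). Over 288 pairs of replicate libraries no chi-square per degree of freedom was under 2.55, so each library counted once. Nothing says that the samples came from separate animals, so p-values measure the spread between these samples.

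limma 3.58.1 (R 4.3.3; lmFit, eBayes with trend) was run on log2(CPM + 1), which understates changes of low genes, for genes with at least 1 CPM in a number of samples equal to the smallest group. Transcriptomes had 1 fit, and the 48 side means of the gradients another. The Benjamini-Hochberg adjustment ran over all genes. edgeR 4.0.16 and DESeq2 1.42.0 on the recovered reads were alternatives, as were other pseudocounts, filters, scalings, sides, left-out replicates and the gradient as a block. For the gradients these reads were summed over a side, so deeper fractions weigh more there than in the mean CPM that limma used. Functions were tested on simulated data. Heavy and light sides of a letter come from 1 lysate and are paired by origin (r of their deviations 0.01 to 0.25, median 0.10, 24 pairs), and letters of transcriptome pools pair nothing (median 0.02, 84 pairs). Letters in the table and the labels differ for the 2-cell transcriptomes, which were used as a group without letters.

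The noncoding RNAs and gene lists were chosen with earlier results of these data known. Named are all listed noncoding RNAs, the 3 genes of most similar pattern for each, the coding gene nearest in mean CPM, and of each other list at most 4 called genes of largest change.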

Additional observations from a re-analysis of the deposited data

Results flagged for a closer look

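In 56 groups of 4 transcriptome pools, 6 had a pool far from the other 3 by Dixon's test, and chance flags about 1 in 20 groups. The Malat1 level in 4C embryos was 116 CPM in pool B beside 52.7 to 59.9 CPM, and that of Snhg8 in 8C embryos was 8.43 CPM in pool D beside 4.32 to 4.96 CPM. The Bc1 level in 2C embryos was 0.578 CPM in the pool with column letter E beside 0.0846 to 0.153 CPM. A further 3 flags rest on 1 or 2 reads in a single pool, with 0 in the others: Neat1 in GV oocytes (0.0727 CPM), and Snhg12 in GV (0.132 CPM) and MII oocytes (0.0938 CPM).

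A set of 3 differences in position between stages passed a test of the difference itself. Gas5 moved by -4.26 from MII oocytes to blastocysts and by -2.65 from 8C embryos to blastocysts, and Neat1 by 2.80 from 8C embryos to blastocysts (limma, adjusted p = 1.5e-05, 0.011 and 0.044). All 3 comparisons were chosen after the values were seen.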

How the results depend on the processing

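Of 2519 values of the 7 noncoding RNAs under alternatives, 2184 kept their direction and side of the threshold, 74 lost a call and 80 gained one. A further 176 uncalled values stayed uncalled but turned in sign, 47 of them without 1 replicate, such as Malat1 in 4C embryos (0.21, and -1.44 without gradient A), and 2 had a difference of 0. The other 3 turned in sign with a call on one side, all when fractions 1 to 3 were set against 8 to 10: Gas5 in 2C embryos (-0.21), Snhg8 in 4C embryos (-3.28, called) and the change of Snhg8 from 4C to 8C embryos (3.99, called). The cause was not tested.

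The transcriptome calls (15 of 49) were 23 with edgeR and 23 with DESeq2. The calls within stages (15 of 56) were 6 with edgeR, which took reads summed over a side. They were 9 with the light side as fractions 2 to 5, and 7 to 13 without 1 replicate. The 2 calls over the stages became 1 with the light side as fractions 2 to 5. The changes between consecutive stages (0 of 49) became 1 with a pseudocount of 0.1, 1 without a filter, 2 with quantile normalization, 2 with edgeR, 5 with DESeq2, 1 with fractions 1 and 2 as the light side, 2 with fractions 1 to 3 against 8 to 10, and 1 with fractions 2 to 5. The 3 later-chosen calls of change to the blastocyst became 1 with a pseudocount of 0.1, 1 with edgeR, 1 with fractions 2 to 5 and 1 without any one replicate.

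The gradient as a replicate block kept 15 of 56 and 2 of 7 calls and 0 of 49, and left 2 of the 3 later-chosen calls. For transcriptomes the block called 4 of 35, as did the fit without it over the same 35 comparisons, since those with 2-cell pools could not be fitted. Fits of only the groups compared gave no value for genes that their own filter removed. The shallow fraction 1 limits Bc1 and Neat1 from 2C embryos to morulae, and libraries with 0 reads limit Snhg8 and Snhg12.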
